A study of Drosophila melanogaster with 10 samples.

Results

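In *D. melanogaster*, mRNAs pulled down by TRAP with a driver aimed at dopaminergic (DA) neurons were set against a library of total mRNA labelled whole brain, gene by gene. The aim was to describe which genes were higher and which lower in TRAP control than in whole brain across the genome. The comparison used the 3 TRAP control libraries and the 1 whole brain library, that is 4 of the 10 libraries of the series, and every annotated gene of the deposited table (17716 genes). Of these, 14480 had a count in at least 1 of the 4 libraries and 10426 were measured, defined as a mean of the TRAP control mean and the whole brain value of at least 1 CPM (counts relative to the library total scaled by edgeR's TMM factors).

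TRAP control flies were heterozygous for the *dTH-GAL4* driver, carried *UAS-GFP::RpL10A*, and expressed no PARIS. Their strain label is w1118XdTH-Gal4 and their genotype label dTH+TRAP(GFP-RpL10a). The whole brain library came from w1118 flies labelled wild type, without driver or transgene. Each TRAP control library was an independent biological sample of 500 heads of both sexes. In the labels all flies were 30 days old, whereas the methods place collection shortly after eclosion. The protocol describes the library without TRAP as total mRNA of the whole head, where its title and tissue label say brain. Effects of the pulldown, of genotype and of any difference in tissue cannot be told apart in this comparison. The PARIS C571A and PARIS WT groups, with 3 TRAP libraries each, enter below only as values beside those of TRAP control.

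In TRAP, a ribosomal protein fused to GFP is expressed in chosen cells, and an antibody against GFP pulls down ribosomes with the mRNAs bound to them. The *dTH-GAL4* driver uses control sequence of *ple*, the gene of tyrosine hydroxylase, the rate-limiting enzyme of dopamine synthesis. DA neurons fill vesicles through the monoamine transporter Vmat and take dopamine back up through DAT. Small noncoding RNAs of the splicing and ribosome assembly machinery and of the signal recognition particle are not messengers and are not translated.

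TRAP control replicates 1, 2 and 3 held 21737687, 21625198 and 11173874 counts and whole brain 11619907. Replicates correlated with each other at r of 0.703 to 0.718 on log2 CPM over the measured genes, and with whole brain at 0.499 to 0.518. An exact 0 in this table may be a failed estimate of abundance: 37 genes were listed at 0 in whole brain with at least 200 counts in every TRAP control library, among them the elongation factor gene *eEF2*, with 36999, 38403 and 29144 counts in TRAP control and 0 in whole brain. By the same minimum of 200 counts in the other 3 libraries, 5, 38 and 49 genes were listed at 0 in TRAP control replicates 1, 2 and 3 alone. Genes at 0 are therefore given by their counts, without a fold, and the count over all genes and those of several tissue lists are also given without them.

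With the ratio of each TRAP control replicate over whole brain taken on the log2 scale, 1386 genes were more than 2-fold higher in every TRAP control replicate (13.3% of the 10426 measured genes) and 1870 were more than 2-fold lower in every replicate (17.9%). These calls rest on size alone, since whole brain has 1 library and no test was run. Over genes with counts in all 4 libraries, 1246 of 8057 were higher (15.5%) and 1129 were lower (14.0%). A difference of more than 16-fold in every replicate was found for 181 genes upward and 384 downward. These include genes listed at 0, whose ratios rest on the small count added to every value. Of the calls at 2-fold, 140 of those higher and 741 of those lower had a 0 in a library. The median gene had log2 ratios of −0.22, −0.25 and −0.27 in replicates 1, 2 and 3. Lists of genes below are therefore given relative to this median. Scaling on library totals alone, without TMM factors, moved the median gene to −1.40 and the calls to 565 higher and 4709 lower. Centred on the median gene, 1692 genes were higher and 1501 lower, and relative to genes of like transcript length 1571 were higher and 1311 lower. The balance of the calls and the direction of genes with small ratios therefore rest on the scaling and centring.

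**Figure D1:**
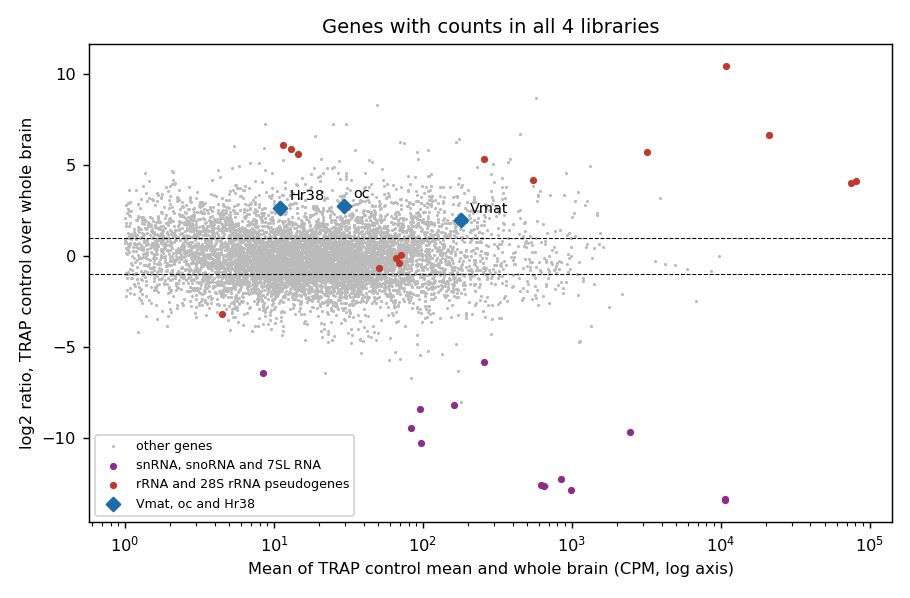
Mean log2 ratio, TRAP control to whole brain (y axis), against the mean level of the gene in CPM (x axis, log scale), for the 8057 measured genes with counts in all 4 libraries. Each point is a gene and the dashed lines mark a 2-fold difference. The small noncoding RNAs lie at the bottom, several 28S rRNA genes and pseudogenes at the top, and *Vmat*, *oc* and *Hr38* above the upper line.

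The lowest ratios among the measured genes belonged to small structural RNAs. The sequences of 4 of these are shown as examples of each class, read from RefSeq's Release 6 genome, the assembly of the files. The 7SL genes, which encode the RNA of the signal recognition particle, lie as copies on opposite strands at 3R:6822500-6822798 (+) and 3R:6820131-6820429 (−), and their sequences differed at 0 bases, so that 1 is shown. The U1 gene at 3R:23859467-23859630 (−) begins with the stretch that pairs with 5′ splice sites, in capitals. The H/ACA snoRNAs, named for the position in 28S rRNA at which they guide pseudouridylation, lie at X:5524302-5524465 (−) and X:17145384-17145534 (−), with the ACA box, 3 bases before the 3′ end, in capitals.
7SLRNA:CR32864: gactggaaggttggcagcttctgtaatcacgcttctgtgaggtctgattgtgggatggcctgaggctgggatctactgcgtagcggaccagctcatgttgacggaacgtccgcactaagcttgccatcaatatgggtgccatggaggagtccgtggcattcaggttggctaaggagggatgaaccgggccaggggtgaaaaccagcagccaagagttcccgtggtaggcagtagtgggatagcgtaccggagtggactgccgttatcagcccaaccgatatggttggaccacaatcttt
snRNA:U1:95Ca: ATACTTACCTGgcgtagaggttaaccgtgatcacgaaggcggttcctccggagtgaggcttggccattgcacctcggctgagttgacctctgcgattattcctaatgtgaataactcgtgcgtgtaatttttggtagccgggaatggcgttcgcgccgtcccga
snoRNA:Psi28S-3342: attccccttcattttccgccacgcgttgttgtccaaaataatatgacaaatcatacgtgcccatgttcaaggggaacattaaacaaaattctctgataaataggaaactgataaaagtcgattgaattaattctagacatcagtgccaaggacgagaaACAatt
snoRNA:Psi28S-1135f: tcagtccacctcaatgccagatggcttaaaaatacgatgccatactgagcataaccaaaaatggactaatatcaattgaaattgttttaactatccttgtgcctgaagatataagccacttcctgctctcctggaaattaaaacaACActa

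The pair of 7SL genes together held 41, 55 and 75 counts in TRAP control replicates 1, 2 and 3, against 886630 in whole brain. This is 4.20 ± 2.23 CPM (SD, n = 3) in TRAP control and 42890.0 CPM in whole brain, a level 10200.0-fold higher in whole brain. Since the copies are identical, their reads could not be told apart, and the table splits them almost evenly. The U1 gene shown held 2, 2 and 2 counts in TRAP control and 26676 in whole brain. All 5 U1 genes together held 11, 7 and 6 counts in TRAP control and 107725 in whole brain, and the 6 U2 genes 4, 8 and 4 counts in TRAP control and 66064 in whole brain. The U11 gene was listed at 0 in every TRAP control library and at 11353 counts in whole brain. The 7SK RNA, a regulator of transcription elongation, held 102, 67 and 88 counts in TRAP control and 101226 in whole brain, or 6.12 ± 1.99 CPM (SD, n = 3) and 4897 CPM. Every measured snRNA gene (20 of 20) and snoRNA gene (123 of 123) was called lower, beside 17.9% of all measured genes. Of the 273 snoRNA and scaRNA genes, 123 were measured. With so few counts in TRAP control, most could pass the filter only through whole brain, which fixes a call of lower. These shares therefore add nothing to the counts themselves. *snoRNA:Psi28S-3342* held 3, 2 and 0 counts in TRAP control and 18174 in whole brain, and *snoRNA:Psi28S-1135f* 2, 4 and 0 counts in TRAP control and 7903 in whole brain. All snoRNA and scaRNA genes together gave 16.3, 21.1 and 22.8 CPM in TRAP control and 12590.0 CPM in whole brain.

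The opposite held for 28S ribosomal RNA. The 28S rRNA genes with their pseudogenes gave 420300.0, 320900.0 and 351900.0 CPM in TRAP control and 17830.0 CPM in whole brain, a level 20.4-fold higher in TRAP control. The most extreme was the pseudogene *28SrRNA-Psi:CR45851*, with 445310, 342310 and 183291 counts in TRAP control and 306 in whole brain. These genes are near-identical copies of each other, so their shares within the family are uncertain. The mitochondrial gene *mt:ATPase6* took 33.8%, 38.8% and 19.2% of the counts of TRAP control replicates 1, 2 and 3 and was listed at 0 in whole brain, so no fold is given for it. Of the other 8 measured mitochondrial subunit genes, 4 (*mt:CoI*, *mt:Cyt-b*, *mt:ND1* and *mt:ND3*) were lower and 0 higher, beside 17.9% and 13.3% of all measured genes. *mt:CoI*, a cytochrome oxidase subunit, stood at 701, 725 and 157 CPM in TRAP control and 3027 CPM in whole brain. *mt:ND6* had log2 ratios of 2.79, 1.04 and −4.54 in replicates 1, 2 and 3, and *mt:ND2* ones of 0.86, 0.07 and −4.53. Replicate 3 was the lowest of the TRAP control libraries for each of these 8 genes.

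Among the protein-coding genes 1299 of 9938 were higher (13.1%) and 1679 were lower (16.9%). The markers given for DA neurons in this comparison were all higher. *Vmat* stood at 265, 276 and 321 CPM in TRAP control and 73.1 CPM in whole brain, a mean log2 ratio of 1.97 ± 0.15 (SD, n = 3, as for the ratios below). The homeobox gene *oc* stood at 64.3, 44.2 and 47.0 CPM in TRAP control and 7.45 CPM in whole brain, a log2 ratio of 2.77 ± 0.29. The nuclear receptor gene *Hr38* stood at 21.4, 22.4 and 13.7 CPM in TRAP control and 2.90 CPM in whole brain, a log2 ratio of 2.66 ± 0.39. The median of the 3 markers lay 2.79 ± 0.30 above all genes, and 1.99 ± 0.19 above genes of like transcript length. No TRAP control value of these markers overlapped the whole brain value. Of all 10426 measured genes, 2936 had ratios of both signs among the replicates, so most did not overlap either.

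The dopamine pathway itself was less uniform. The dopa decarboxylase gene *Ddc* stood at 162, 128 and 178 CPM in TRAP control and 77.5 CPM in whole brain (log2 ratio 0.99 ± 0.24), and *Pu*, whose product starts synthesis of the cofactor of tyrosine hydroxylase, at 112, 97.8 and 72.4 CPM in TRAP control and 138 CPM in whole brain (−0.58 ± 0.32). *DAT* held 1552 counts (98.6 CPM) in replicate 1, was listed at 0 in replicates 2 and 3, and held 308 counts (14.9 CPM) in whole brain. *ple* was listed at 0 in replicate 2 and had 60.5 and 42.8 CPM in replicates 1 and 3, against 19.4 CPM in whole brain. Of the 6 genes of dopamine synthesis and transport, 1 (*Vmat*) was called higher (16.7%, beside 13.3% of all measured genes) and 0 lower. *ple* and *DAT* could not be called higher, since each was listed at 0 in a TRAP control library. Where they had counts, the log2 ratios were 1.64 and 1.14 for *ple* in replicates 1 and 3, and 2.72 for *DAT* in replicate 1. The ribosomal protein gene of the tag's own family, *RpL10Ab*, stood at 1080.0, 1114 and 1271 CPM in TRAP control and 819 CPM in whole brain (0.49 ± 0.13). In these bulk samples, more cells of a type and more RNA per cell cannot be told apart.

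Genes of excitable membranes were higher as a group. Of 21 voltage-gated channel genes, 14 were higher and 1 (*Ork1*, a potassium leak channel named here after its value was seen) was lower. The list's median log2 ratio lay 2.64 ± 0.06 above that of all genes, and 1.85 ± 0.18 above genes of like transcript length. The potassium channel gene *Sh* stood at 752, 372 and 572 CPM in TRAP control and 32.6 CPM in whole brain (4.06 ± 0.51), and the sodium channel gene *para* at 446, 333 and 317 CPM in TRAP control and 61.0 CPM in whole brain (2.56 ± 0.27). The cyclic nucleotide-gated *Ih* stood at 688, 606 and 620.1 CPM in TRAP control and 68.2 CPM in whole brain (3.22 ± 0.10). The TRAP control range of each lay above its whole brain value, though most measured genes likewise had a range that did not span whole brain.

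More of the receptor channels for transmitters were higher than lower. Of 20 transmitter receptor channel genes, 9 were higher and 1 (the nicotinic subunit gene *nAChRbeta3*) was lower, with a median 1.57 ± 0.28 above all genes. *Rdl*, a GABA-gated chloride channel, stood at 758, 739 and 692 CPM in TRAP control and 20.3 CPM in whole brain (5.16 ± 0.07). The nicotinic receptor subunit gene *nAChRalpha6* stood at 207, 218 and 199 CPM in TRAP control and 9.92 CPM in whole brain (4.38 ± 0.07). Of 16 monoamine receptor genes, 3 (*Dop1R1*, *DopEcR* and *Octbeta3R*) were higher (18.8%, beside 13.3% of all measured genes) and 0 lower. The median of this list lay 1.21 ± 0.07 above all genes, and 0.48 ± 0.27 above genes of like transcript length. Among the 3 was *DopEcR*, a receptor for dopamine and ecdysteroids, at 208, 203 and 167 CPM in TRAP control and 26.6 CPM in whole brain (2.85 ± 0.17). The autoreceptor gene *Dop2R* was not called, with 58.3, 51.4 and 33.5 CPM in TRAP control and 67.7 CPM in whole brain.

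The pan-neuronal RNA-binding protein genes *fne* and *elav* stood out among neurons in general, a list of 10 of which 5 were higher and 0 lower (median 1.52 ± 0.21 above all genes, and 0.73 ± 0.09 above genes of like transcript length). *fne* stood at 649, 615 and 467 CPM in TRAP control and 16.7 CPM in whole brain (5.09 ± 0.25), and *elav* at 226, 187 and 149.6 CPM in TRAP control and 16.7 CPM in whole brain (3.46 ± 0.30). Genes of the synaptic vesicle cycle and active zone were higher in 7 of 19 cases (36.8%) and lower in 1 (5.26%), beside 13.3% and 17.9% of all measured genes. The 1 lower was *Vha100-1*, a subunit of the vesicular proton pump. *unc-13*, a vesicle priming factor, stood at 916, 1066 and 808 CPM in TRAP control and 245 CPM in whole brain (1.92 ± 0.20). Genes of other transmitters were not uniformly low: *ChAT*, the acetylcholine synthesis gene, stood at 166, 157 and 157 CPM in TRAP control and 19.3 CPM in whole brain (3.05 ± 0.05), while *Gad1*, which makes GABA, stood at 88.5, 82.0 and 69.2 CPM in TRAP control and 153 CPM in whole brain (−0.95 ± 0.18). *ChAT* shares its locus with *VAChT*, and reads of their shared part cannot be told apart. Of 6 activity-regulated transcription factor genes, 3 (*Hr38*, *CrebA* and *sr*) were higher and 0 lower.

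Of 33 measured neuropeptide genes, 3 (*Nplp3*, *Ptth* and *amn*) were higher (9.09%) and 9 lower (27.3%), beside 13.3% and 17.9% of all measured genes. Over the 27 with counts in all 4 libraries, 2 were higher and 7 lower. An example is *Orcokinin* at 23.7, 24.2 and 22.5 CPM in TRAP control and 54.9 CPM in whole brain. Of the 6 genes that process peptides, 0 were higher and 3 (*amon*, *7B2* and *Pal2*) were lower. The prohormone convertase gene *amon* stood at 36.8, 41.7 and 46.4 CPM in TRAP control and 162 CPM in whole brain (−1.96 ± 0.17), and its partner *7B2* at 65.0, 63.1 and 73.2 CPM in TRAP control and 206 CPM in whole brain (−1.62 ± 0.11). All TRAP control values lay below whole brain for both, though most measured genes likewise had a range that did not span whole brain.

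**Figure D2:**
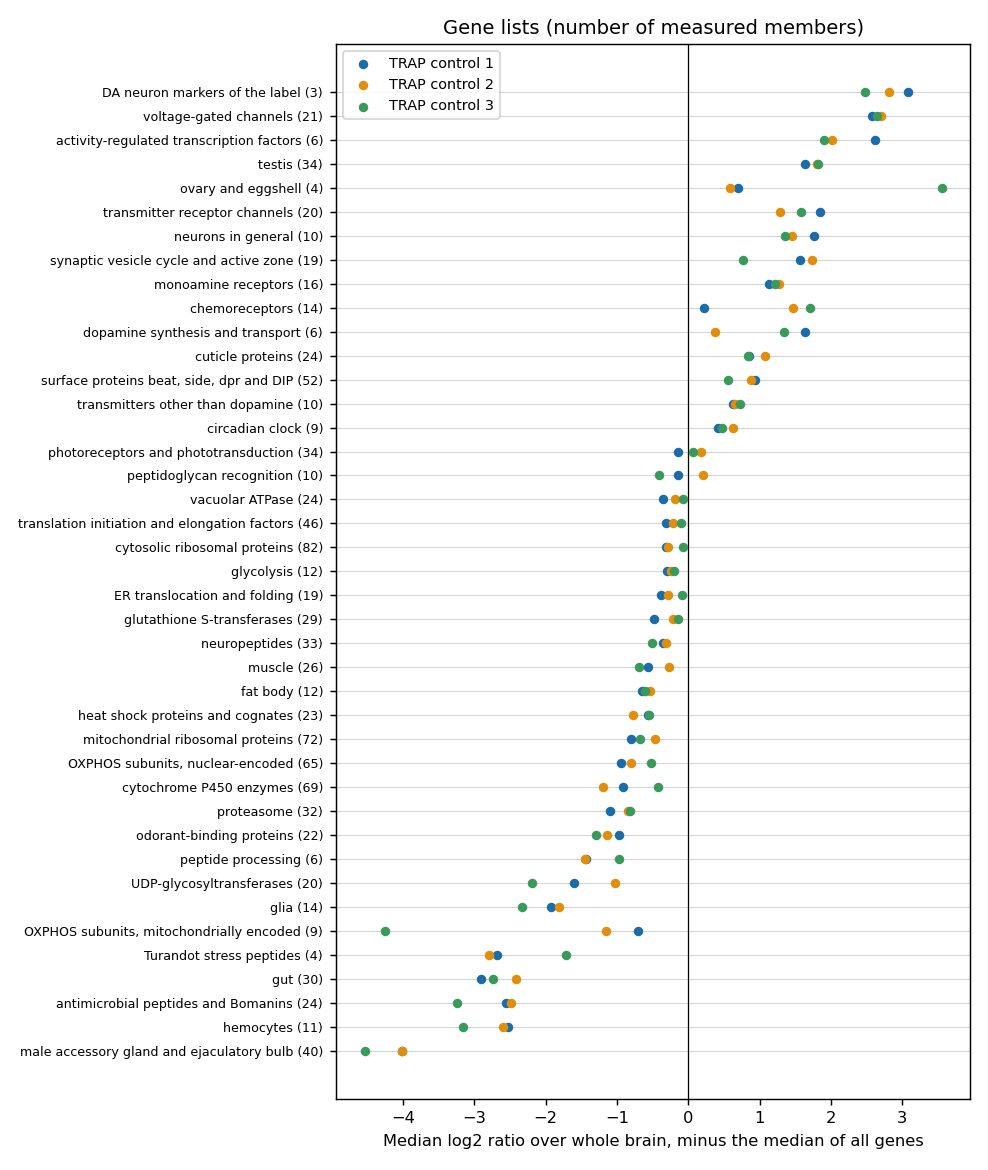
Median log2 ratio, TRAP control to whole brain, of each gene list, minus the median of all measured genes (x axis), in the 3 TRAP control replicates (points), with the number of measured members in brackets. Voltage-gated channels lie near 2.64 and the male accessory gland list near −4.19.

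Glial genes were lower. Of 14, 11 were lower and 0 higher (9 lower of the 12 with counts in all 4 libraries), with a median of −2.02 ± 0.27 relative to all genes. The glutamate transporter gene *Eaat1* stood at 47.8, 31.2 and 23.5 CPM in TRAP control and 353 CPM in whole brain (−3.43 ± 0.52), and the Na,K-ATPase subunit gene *nrv2* at 43.3, 36.7 and 47.0 CPM in TRAP control and 381 CPM in whole brain (−3.18 ± 0.18). *Gs2*, glutamine synthetase, was with *loco* and *moody* one of the 3 glial genes not called, at 754, 774 and 803 CPM in TRAP control and 461 CPM in whole brain.

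Photoreceptor genes were not depleted as a list. Of 34, 9 were higher (26.5%) and 3 were lower (8.82%), beside 13.3% and 17.9% of all measured genes. The 3 were *Arr1*, *Gbeta76C* and *ninaD*, the last pair named after their values were seen. The median of the list lay 0.03 ± 0.17 from that of all genes. The rhodopsin gene *ninaE* stood at 9490.0, 10720.0 and 9239 CPM in TRAP control and 9586 CPM in whole brain (0.03 ± 0.11), so that the TRAP control values lay on both sides of whole brain. *Arr1*, an arrestin, stood at 829, 894 and 754 CPM in TRAP control and 3528 CPM in whole brain (−2.10 ± 0.12), whereas *Arr2*, the other arrestin of photoreceptors, stood at 3406, 3509 and 3920.0 CPM in TRAP control and 4802 CPM in whole brain (−0.41 ± 0.11). Summed over the list, photoreceptor genes gave 20760.0, 22220.0 and 20080.0 CPM in TRAP control and 23480.0 CPM in whole brain. The part of such RNA in the ratios of other genes was not tested.

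Of fat body, muscle and hemocyte genes, part were lower. *apolpp*, the lipophorin of the fat body, stood at 2331, 2203 and 1744 CPM in TRAP control and 11600.0 CPM in whole brain (−2.48 ± 0.22), and 5 of 12 fat body genes (*apolpp*, *Apoltp*, *FASN1*, *Lsp2* and *fit*) were lower and 0 higher, or 4 of 10 without genes at 0. In muscle, 10 of 26 were lower and 1 was higher: *Mhc*, myosin heavy chain, stood at 199.6, 186 and 214 CPM in TRAP control and 1200.0 CPM in whole brain (−2.59 ± 0.10), but *Msp300*, a giant nuclear envelope protein gene, at 7376, 6913 and 6792 CPM in TRAP control and 756 CPM in whole brain (3.22 ± 0.06). Without genes at 0, 7 of 23 muscle genes were lower. Summed over the muscle list, *Msp300* included, the level was 10100.0, 9495 and 9185 CPM in TRAP control and 5460.0 CPM in whole brain. *Msp300* made up most of this sum in TRAP control but not in whole brain, so the direction of the sum is that of this gene and not of the list. Of 11 hemocyte genes 7 were lower and 0 higher, or 5 of 8 without genes at 0. *Ppn*, papilin of the extracellular matrix, stood at 57.8, 58.3 and 56.9 CPM in TRAP control and 612 CPM in whole brain (−3.41 ± 0.02).

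Genes of the male accessory gland and ejaculatory bulb and of the gut, which are not head tissue, had counts in whole brain and were mostly lower. Of 40 genes of the male accessory gland and ejaculatory bulb, 37 were lower and 0 higher (18 lower of the 20 with counts in all 4 libraries), with a median of −4.19 ± 0.31 relative to all genes. Summed, they gave 94.9, 78.6 and 82.5 CPM in TRAP control and 1558 CPM in whole brain. *Mst57Da*, a seminal peptide gene, stood at 1.21, 2.02 and 1.44 CPM in TRAP control and 165 CPM in whole brain (−6.71 ± 0.36). Of 30 gut genes, 22 were lower and 0 higher (12 lower of the 15 with counts in all 4 libraries), with the protease gene *Jon99Cii* at 8.32, 6.82 and 10.8 CPM in TRAP control and 173 CPM in whole brain (−4.34 ± 0.33).

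Testis genes were higher or not called. Of 34, 16 were higher and 0 lower (15 higher of the 29 with counts in all 4 libraries), 1.75 ± 0.10 above all genes at the median, and their sum was 1069, 1119 and 972 CPM in TRAP control and 303 CPM in whole brain. *S-Lap1*, a sperm leucyl aminopeptidase gene, stood at 171, 168 and 159.5 CPM in TRAP control and 48.6 CPM in whole brain (1.77 ± 0.05), and the germline gene *bol* at 346, 334 and 236 CPM in TRAP control and 30.0 CPM in whole brain (3.32 ± 0.31). Of 24 measured cuticle protein genes 7 were higher (29.2%) and 4 (*Cpr49Ab*, *Cpr65Au*, *Cpr67B* and *TwdlT*) lower (16.7%), beside 13.3% and 17.9% of all measured genes. Without genes at 0, 7 of 17 were higher and 2 lower. Members of such small counts that are named without a value, other than those the naming rule takes in, were named after their values were seen. The part of testis or cuticle RNA in the ratios of other genes was not tested.

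Immune peptides formed the next depleted group. Of 24 antimicrobial peptide and Bomanin genes, 19 were lower and 1 was higher (14 and 0 of the 17 with counts in all 4 libraries), with a median of −2.76 ± 0.42 relative to all genes. The 1 called higher, *BaraA1*, held 2921, 2986 and 1978 counts in TRAP control and was listed at 0 in whole brain. *BomS1*, a short Bomanin, stood at 6.61, 5.10 and 6.47 CPM in TRAP control and 177 CPM in whole brain (−4.86 ± 0.21). *Mtk*, an antifungal peptide gene, stood at 2.22, 2.31 and 2.34 CPM in TRAP control and 63.9 CPM in whole brain (−4.76 ± 0.04).

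Among protein-coding genes with at least 20 counts in whole brain, *Pif1A* had the largest ratio in its lowest replicate. This gene spans 8774286 to 8801176 of 3R and stood at 1141, 1216 and 1101 CPM in TRAP control and 2.66 CPM in whole brain (55 counts, exact 95% Poisson interval 41.4 to 71.6, counting error only), a log2 ratio of 8.72 ± 0.07. *Rack1*, a scaffold on the small ribosomal subunit, followed with 768, 925 and 958 CPM in TRAP control and 8.27 CPM in whole brain (6.72 ± 0.17). *RpL21* stood at 317, 359 and 355 CPM in TRAP control and 3.92 CPM in whole brain (6.43 ± 0.10), while the median log2 ratio of the cytosolic ribosomal protein genes was −0.47. *NAT1*, a translation initiation factor of the eIF4G family, had log2 ratios of 6.30, 6.47 and 6.06 in replicates 1, 2 and 3, and *rin*, an RNA-binding protein gene, one of 6.21 ± 0.29 on average. The zinc finger gene *br* and the RNA-binding protein gene *nonA* had 5.85 ± 0.61 and 5.23 ± 0.20. The 12 whole brain counts behind these ratios lay between 22 and 420, and *Rack1*, *RpL21* and *ATPsynD* are genes that every cell uses. Whether such low counts are failed estimates, as an exact 0 may be, was not tested.

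**Figure D3:**
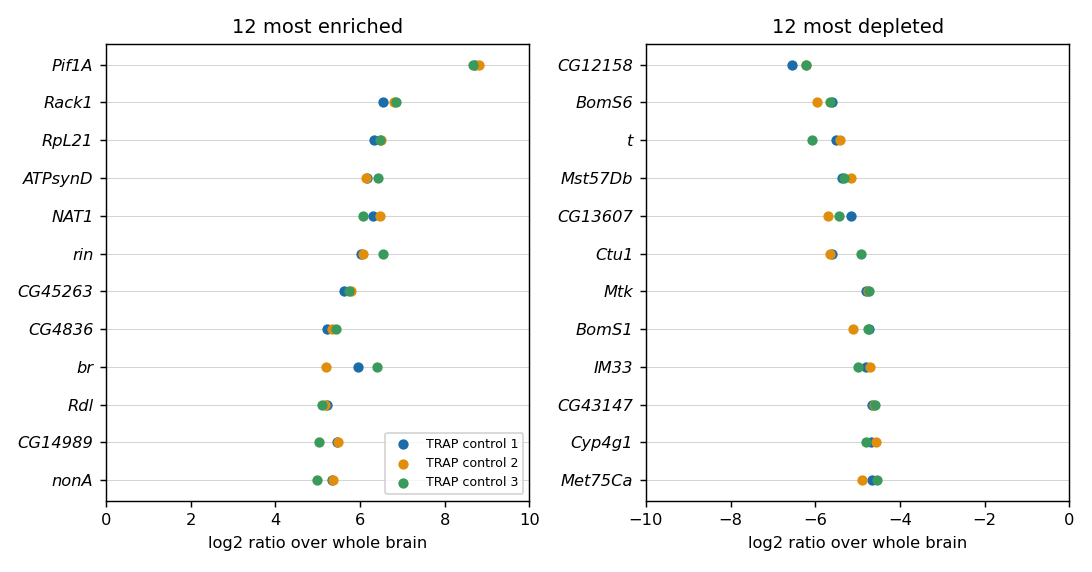
Log2 ratio of each TRAP control replicate over whole brain (x axis) for the 12 protein-coding genes with the largest ratio in their lowest replicate (left) and the 12 with the most negative ratio in their highest replicate (right). The replicates of a gene lie close together, and *Pif1A* stands at 8.72 and *CG12158* at −6.33 on average.

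At the other end, *CG12158*, spanning 9362574 to 9362906 of 2R, stood at 3.56, 4.51 and 4.50 CPM in TRAP control and 339 CPM in whole brain (−6.33 ± 0.19). *t*, the hydrolase Tan that recycles histamine and dopamine from their conjugates, stood at 2.92, 3.14 and 1.98 CPM in TRAP control and 137 CPM in whole brain (−5.67 ± 0.35). *Ctu1*, which modifies tRNA, stood at 5.27, 5.10 and 8.54 CPM in TRAP control and 260.3 CPM in whole brain (−5.40 ± 0.41). *Cyp4g1*, which makes cuticular hydrocarbons in oenocytes, stood at 84.3, 92.2 and 78.7 CPM in TRAP control and 2171 CPM in whole brain (−4.68 ± 0.11). *BomS6*, *BomS1*, *Mtk* and *Mst57Db* belong to the immune and seminal lists above. The muscle actin gene *Act88F* was listed at 0 in every TRAP control library and held 747 counts in whole brain.

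Among genes that every cell uses, the counts varied by list. Of 82 cytosolic ribosomal protein genes, 8 were higher (9.76%) and 22 lower (26.8%), beside 13.3% and 17.9% of all measured genes. Their median was −0.23 ± 0.13 relative to all genes and 0.18 ± 0.13 relative to genes of like transcript length. *RpL8* stood at 1962, 2115 and 2519 CPM in TRAP control and 902 CPM in whole brain (1.28 ± 0.18), and *RpL6* at 1360.0, 1491 and 1823 CPM in TRAP control and 972 CPM in whole brain. Of 32 proteasome genes, 14 were lower (43.8%) and 0 higher. Of 65 nuclear-encoded OXPHOS subunit genes, 28 were lower (43.1%) and 3 (*ATPsynD*, *ND-B16.6* and *UQCR-Q*) higher (4.62%). Relative to all genes, the medians of the proteasome and OXPHOS lists were −0.92 ± 0.16 and −0.76 ± 0.22. Relative to genes of like transcript length they were −0.68 ± 0.02 and −0.35 ± 0.14. Of 46 translation initiation and elongation factor genes 5 were higher (*eEF2* and *eIF3m*, both listed at 0 in whole brain, *eIF4E3*, *eIF4EHP* and *eIF4G2*) and 6 lower. Without genes at 0, 3 of 41 were higher and 6 lower. Of 19 genes of ER translocation and folding, 3 were higher (15.8%: *Cnx99A*, *Sec61alpha* and *Sec61gamma*) and 2 lower (10.5%: *CaBP1* and *Srp54k*). Of 12 glycolysis genes 2 were higher (16.7%: *Ald1* and *Pgk*) and 2 lower (16.7%: *Ldh* and *Pgi*). Without genes at 0, 2 of 15 ER genes were higher and 1 lower, and 2 of 9 glycolysis genes were higher and 1 lower. The counts of translation factor, ER and glycolysis genes lay near the shares of all measured genes. Of the genes in these small counts, those that the naming rule does not take in were named after their values were seen. The chaperone gene *Hsc70-4* stood at 191, 100.5 and 263 CPM in TRAP control and 2504 CPM in whole brain (−3.87 ± 0.71).

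Ratios were lowest for genes with the shortest annotated transcripts and highest for those with the longest. In 5 bins of protein-coding genes by the length of their longest transcript, the median log2 ratio was −0.71 ± 0.05, −0.38 ± 0.07, −0.45 ± 0.04, −0.24 ± 0.10 and 0.55 ± 0.15 (SD, n = 3) from the shortest bin (165 to 1116 bases) to the longest (3911 to 71382 bases). In the longest bin 555 of 1987 genes were higher and 128 lower, and in the shortest 196 of 1993 were higher and 556 lower. Within 1 protein complex, cytosolic ribosomal protein genes with counts in all 4 libraries had a median log2 ratio of −1.01 ± 0.15 over the 26 shortest and −0.12 ± 0.16 over the 26 longest. Relative to genes of like length, the median of glia was −2.09 ± 0.17 and that of the male accessory gland list −3.72 ± 0.36. The part of length in these ratios beyond this comparison was not tested.

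**Figure D4:**
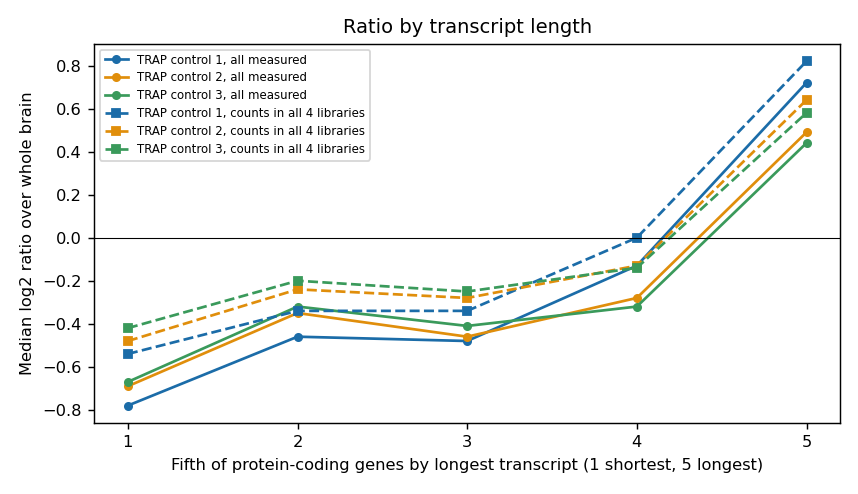
Median log2 ratio, TRAP control to whole brain (y axis), in each of 5 equal bins of protein-coding genes by longest transcript (x axis, shortest to longest), with 1 line per TRAP control replicate. Solid lines are all measured genes and dashed lines the genes with counts in all 4 libraries. The longest bin stands at 0.55 and the shortest at −0.71 on average.

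By chromosome, X carried the median ratio nearest 0 (−0.05 ± 0.05) and 2L the lowest of the large arms (−0.44 ± 0.07). Of the 1868 measured protein-coding genes of 2L, 393 were lower (21.0%), beside 16.9% of all measured protein-coding genes.

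The PARIS libraries were set against the same whole brain library, so these values share it with those of TRAP control. All 12 most depleted genes were more than 2-fold lower in all 6 PARIS libraries, and 9 of the 12 most enriched genes were more than 2-fold higher in all 6. The exceptions were *NAT1*, listed at 0 in 2 of the 6, *ATPsynD* and *Pif1A*. In PARIS WT replicate 1, *ATPsynD* held 6 counts and *Pif1A* 32, beside 1549 to 4855 and 9645 to 30084 in the other PARIS libraries. *Rack1*, among the 9, held 501 counts in PARIS C571A replicate 2 and 477 in PARIS WT replicate 3. The other PARIS libraries held 9821 to 35694. Of the 12 most depleted genes, *CG43147* was listed at 0 in PARIS C571A replicate 2 and PARIS WT replicate 3, and *Met75Ca* in PARIS WT replicate 3. These zeros count as lower above. Whether these low counts and zeros are failed estimates was not tested. Voltage-gated channels lay 2.68 ± 0.04 above all genes in PARIS C571A and 2.64 ± 0.12 above in PARIS WT. The testis list differed in its values: its median relative to all genes was 1.75 ± 0.10 for TRAP control, 0.28 ± 0.17 for PARIS C571A and −2.50 ± 0.28 for PARIS WT. That of the gut list was −2.69 ± 0.26 for TRAP control, −4.66 ± 0.46 for PARIS C571A and −5.50 ± 0.21 for PARIS WT. Differences between the TRAP groups were not tested here.

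**Figure D5:**
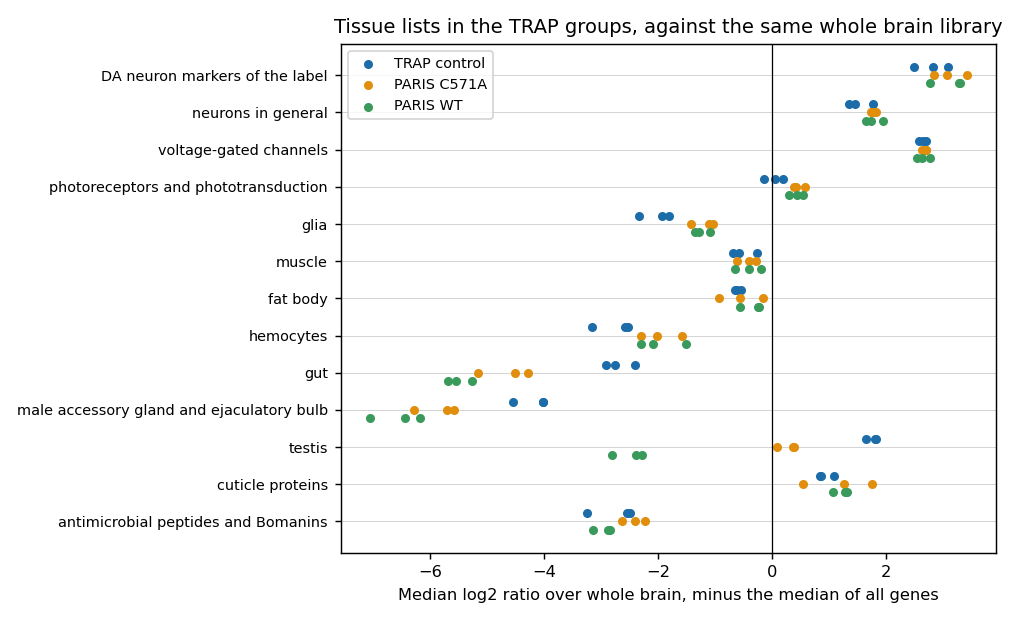
Median log2 ratio over the whole brain library of 13 gene lists, minus the median of all genes (x axis), with 1 point per library for TRAP control, PARIS C571A and PARIS WT. The channel and neuron lists lie close together in the 3 groups, and the testis list lies at 1.75, 0.28 and −2.50.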

How the data were processed

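Libraries were prepared with an Illumina TruSeq RNA kit. Per the labels, HISAT2 2.1.0 was used for alignment to the fly genome. The authors estimated transcript abundance with StringTie 2.0, which corrects for reads that map to several places, and deposited the estimated counts per gene as whole numbers without normalization. Their strand setting is not given in the sources used here. The 87 assembled entries that name no gene took up to 0.0209% of a library and were left out. Of 17716 genes, 17619 were found in a later release of the same Ensembl annotation, which gave symbols, positions and transcript lengths. Counts were scaled with TMM factors in edgeR 4.0.16 (R 4.3.3) and given as CPM, and log2 ratios used a prior count of 1. A gene was called when its log2 ratio passed 1, or −1, in each of the 3 TRAP control replicates. No test was run, since whole brain has 1 library, and SDs cover the TRAP control replicates only, so that the spread of whole brain is not in them. Alternatives were library totals and the median-of-ratios factors of DESeq2 1.42.0 in place of TMM, other filters and prior counts, each TRAP control replicate left out, genes without zeros and genes of like length. The calculation was tested on simulated data.

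Named genes are the 12 protein-coding genes with the largest ratio in their lowest replicate and at least 20 counts in whole brain, the 12 with the most negative ratio in their highest replicate and at least 20 counts in every TRAP control library, the 5 highest in each group with at most 3 counts in the other, up to 4 members of each of 41 gene lists by mean CPM (all members of lists of 10 or fewer), the 5 genes with the largest share of each group, up to 3 noncoding genes in each direction, *RpL10Ab*, *w* and the markers. Only part of these are printed, with a few others that are said to be chosen after their values were seen or that make up a count. The members and lists were chosen with earlier results of these data known. Names that a list's pattern matched wrongly were moved or removed afterwards. Other tables of the series, reads and FPKM values were not used here.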

Additional observations from a re-analysis of the deposited data

How the results depend on the processing

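The zero of the ratio depended on the scaling, and the ratios relative to the median gene much less. With library totals alone the calls were 565 higher and 4709 lower and the median of all genes −1.40. The median was −0.20 with DESeq2's median-of-ratios factors. Without a filter on low values the median was −0.29, the genes lower 3025 and the accessory gland list −3.68. With a mean of at least 10 CPM, 868 genes were higher and 1076 lower, and voltage-gated channels stood at 2.73. With a prior count of 5 the accessory gland list stood at −3.44. 2 further settings were chosen after seeing the data. Without genes listed at 0 in any library, 1129 were lower, the median was −0.09, channels stood at 2.48 and the accessory gland list at −3.63. Against genes of like transcript length, neurons in general stood at 0.73, channels at 1.85, immune peptides at −2.29 and the accessory gland list at −3.72. The photoreceptor list changed sign without replicate 2 (−0.07), without replicate 3 (−0.01), against genes of like length (−0.02) and without genes listed at 0 (−0.13). Against genes of like length, the lists of cytosolic ribosomal proteins, peptidoglycan recognition and glutathione S-transferases changed sign too. Peptidoglycan recognition also did so with a mean of at least 10 CPM, without replicate 3 and without genes listed at 0. The chemoreceptor list changed sign with library totals alone. Leaving out 1 TRAP control replicate gave 1664 to 1795 higher and 2269 to 2345 lower, since fewer replicates had to pass, and a median of −0.25 to −0.22. No called named gene changed direction under any setting, and the causes of the shifts were not tested. With the whole brain count at its Poisson bound nearest to TRAP control, 1116 were higher and 1662 lower. No paired analysis was possible because whole brain has 1 library and the result comes from no test.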
